A study of Homo sapiens with 12 samples.

Results

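The 53 genes described here encode the machinery that licenses, opens and copies chromosomal DNA: the origin recognition complex, the helicase loaders, the MCM2-7 helicase and the factors that activate it, the single-strand binding protein RPA, the replicative polymerases, the sliding clamp and its loader, the enzymes that finish lagging-strand fragments, and the chaperones that put histones back behind the fork. They were chosen by gene name, and 52 of them had a row among the 20771 genes of the count table. UHRF1, the remaining gene of the list, was not analysed here. All 52 passed the filter on low counts that left 16515 genes for testing, in a fit over all 4 groups.

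Replication is licensed in G1, when the origin recognition complex, CDC6 and CDT1 place MCM2-7 rings around DNA, and it fires in S phase, when the kinases CDC7-DBF4 and CDK recruit CDC45 and the GINS complex to each ring to make the active helicase. Polymerase alpha-primase then lays down primers that polymerases epsilon and delta extend, the latter held on DNA by the PCNA clamp. Many of these genes are textbook targets of E2F transcription factors, and their mRNA rises as cells enter S phase. Ribonucleotide reductase, whose large subunit is RRM1, makes the deoxynucleotides that these polymerases consume.

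RNA came from the derivative EW8-RRM1-KO and its counterpart TC71-RRM1-KO, made from the Ewing sarcoma lines EW8 and TC71. In both derivatives the endogenous RRM1 gene had been disrupted with CRISPR/Cas9, and a codon-optimized RRM1 transgene under a doxycycline-inducible promoter kept the cells growing. The libraries labelled 0 h were from cells with doxycycline and those labelled 48 h from cells without it for 48 h, so every group shared the same knockout and transgene. Each line was a clone grown from a single cell, so a difference between EW8 and TC71 cannot be told apart from a difference between 2 clones. There were 3 libraries per line and time, 12 in all, with 18468485 to 35698991 counts each. The labels do not say whether the 3 came from separate cultures, so the p-values measure the spread between these libraries, which may be technical.

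Levels are given as CPM, read counts scaled to the size of the library after TMM normalization (trimmed mean of M values). A gene is called higher or lower where edgeR's quasi-likelihood test gave an adjusted p (Benjamini-Hochberg, over all genes tested) under 0.05, with no minimum fold. Fold changes are log2 unless a percentage is given, and ± is the standard error of the fit. Ranges of adjusted p are over the alternative settings: other scalings, filters on low counts, DESeq2, the replicate number as a block, each line alone, and each library left out in turn. CPM is a share of the RNA sequenced, so that fewer cells with a transcript and less of it per cell cannot be told apart. RRM1 mRNA itself went from 9.37 to 9.67 CPM at 0 h to 63.9 to 74.1 CPM at 48 h in EW8, and from 15.5 to 17.3 CPM to 24.1 to 26.4 CPM in TC71. The transgene is codon-optimized, and the files do not show whether its transcript is counted here, so that RRM1 does not check the doxycycline label. The Ewing sarcoma markers CD99 (236 to 343 CPM), STEAP1 (164 to 258), NR0B1 and NKX2-2 were present in all libraries, and PTPRC, a leukocyte marker, stayed between 0 and 0.219 CPM. Several markers moved with time. NR0B1 went from 76.6 to 83.4 CPM at 0 h to 146 to 166 CPM at 48 h in EW8 and from 80.1 to 83.5 CPM to 83.9 to 97.8 CPM in TC71. NKX2-2 went from 7.33 to 9.49 CPM to 11.1 to 13.6 CPM in EW8 and from 11.3 to 12.6 CPM to 14.6 to 17.9 CPM in TC71. BCL11B went from 84.2 to 90.2 CPM at 0 h to 39.03 to 41.6 CPM at 48 h in EW8 and from 45.9 to 50.5 CPM to 23.4 to 26.4 CPM in TC71. FLI1 went from 111 to 119.8 CPM to 68.1 to 71.5 CPM and from 103 to 104 CPM to 77.3 to 79.6 CPM. The epithelial keratin KRT18 went from 6.26 to 8.31 CPM to 18.1 to 19.6 CPM in EW8 and from 64.5 to 66.2 CPM to 88.96 to 102 CPM in TC71. The fibroblast marker COL1A1 went from 9.64 to 12.8 CPM to 33.5 to 42.2 CPM and from 18.9 to 21.5 CPM to 29.1 to 35.9 CPM. EPCAM, an epithelial marker, stayed between 0.115 and 1.604 CPM. For these markers, their part in the results was not tested.

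The stretches of promoter shown here belong to the 2 members that fell most in EW8, PCNA and MCM6, and to the 2 that rose most, POLD4 and MCM8. They were read from RefSeq promoters (GRCh38.p14), 5′ to 3′ on the strand of the gene, and are limited to the longest run before the RefSeq gene start that no annotated exon covers. Capitals mark words of the E2F type (the word TTCCCGC, the word TTCGCGC, the word TTGCCGC and the word TTGGCGC) and CCAAT, on either strand, so that a CCAAT on the other strand reads ATTGG. The PCNA stretch is chr20:5119959-5120208 (- strand), that of MCM6 chr2:135876444-135876693 (- strand), that of POLD4 chr11:67353664-67353796 (- strand) and that of MCM8 chr20:5950559-5950651 (+ strand).
PCNA: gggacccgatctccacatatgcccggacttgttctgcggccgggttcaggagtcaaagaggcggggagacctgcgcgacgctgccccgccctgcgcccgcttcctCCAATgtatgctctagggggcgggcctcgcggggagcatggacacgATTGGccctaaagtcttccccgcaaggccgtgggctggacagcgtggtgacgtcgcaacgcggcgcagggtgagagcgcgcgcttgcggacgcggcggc
MCM6: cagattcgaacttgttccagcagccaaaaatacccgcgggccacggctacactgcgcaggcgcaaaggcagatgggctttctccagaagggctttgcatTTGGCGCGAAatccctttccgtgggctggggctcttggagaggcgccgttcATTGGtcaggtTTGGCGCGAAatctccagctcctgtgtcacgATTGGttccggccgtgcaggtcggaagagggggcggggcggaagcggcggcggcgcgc
POLD4: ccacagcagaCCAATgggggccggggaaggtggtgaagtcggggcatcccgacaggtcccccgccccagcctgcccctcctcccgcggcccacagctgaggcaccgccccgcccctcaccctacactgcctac
MCM8: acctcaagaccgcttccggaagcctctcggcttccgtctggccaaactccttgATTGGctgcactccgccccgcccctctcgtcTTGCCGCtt

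In MCM6 a forward TTGGCGC and a reversed TTCGCGC overlapped, at 151 and 148 bases before the gene start and again at 89 and 86 bases. PCNA held a CCAAT on each strand, at 145 and 99 bases, and no E2F word in the window. Of the 46 members with a promoter in the RefSeq table, 30 (65.2%) held an E2F word within 250 bases before to 50 bases after the gene start, on either strand. The share was 13.2% of all 27305 promoters in that table, and 20.1% of the 11987 promoters of genes in the count table. CCAAT was found in 25 of the 46 (54.3%), against 36.5% of the promoters of genes in the count table. The cell cycle homology words TTTGAA and TTCGAA were found in 3 of 46 (6.52%, against 11.1%), and the AP-1 words TGACTCA and TGAGTCA in 0 of 46 (against 3.05%). These are matches of letters and do not show binding.

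The balance of members called higher and lower at 48 h differed between the lines. In TC71, 41 of the 52 (78.8%) were called higher and 2 lower, where 22.9% of all genes tested were called higher and 19.2% lower. In EW8, 26 (50%) were called lower and 20 (38.5%) higher, where 31.6% and 37% of all genes tested were called lower and higher. The share of members called higher in EW8 was thus close to that of all genes. The median log2 fold change of the members was 0.33 in TC71 and -0.10 in EW8, beside -0.0013 and 0.031 for all genes tested. Without the second 0 h library of EW8 the EW8 median was -0.17. The 3 libraries of 48 h lay wholly outside the range of the 3 libraries of 0 h for 45 members in each line, beside 71.1% of all genes in EW8 and 49.6% in TC71. With libraries scaled by total counts alone, the EW8 split became 18 lower and 23 higher, and the EW8 median became 0.020 while that of all genes moved to 0.16.

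**Figure D1:**
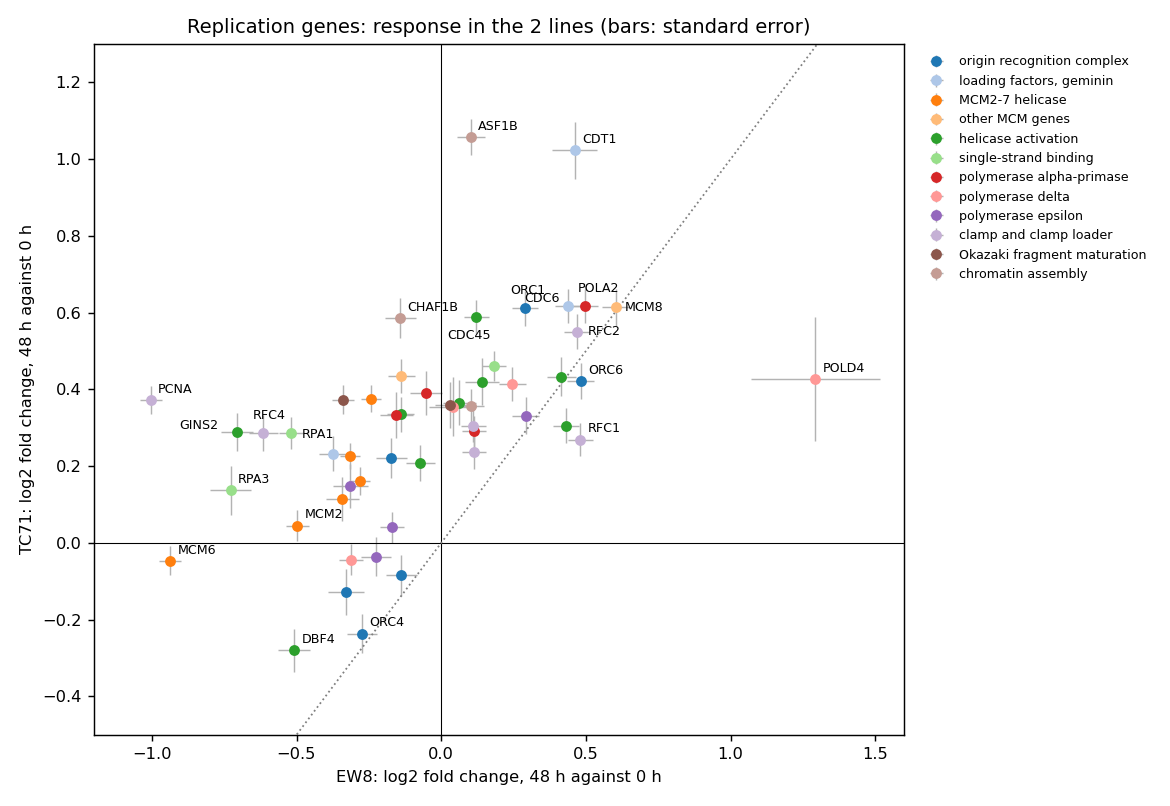
Log2 fold change of 48 h against 0 h in EW8 (horizontal) and TC71 (vertical) for the 52 members, coloured by role, with standard errors and a dotted line of equal change. PCNA, GINS2, RFC4 and RPA1 sit at the upper left, lower in EW8 and higher in TC71, and the 20 members called higher in both lines, among them CDT1, MCM8 and RFC1, sit at the upper right.

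Most changes were small. Past a fold of 2 in EW8 were PCNA, which fell, and POLD4, which rose (background 3.35% of all genes lower and 13.9% higher past that fold). In TC71 they were ASF1B and CDT1, both higher, with 0 members lower (background 3.26% higher and 0.854% lower). PCNA and CDT1 lay close to that limit. Over the alternative settings PCNA in EW8 ran from -1.06 to -0.88 and was not past a fold of 2 with total counts alone or without the third 48 h library of EW8. CDT1 in TC71 ran from 0.95 to 1.11 and was not past it in 4 of 20 settings, leaving out the third 0 h library or the first or the third 48 h library of TC71 among them. The same fit gave the difference of the responses, EW8 minus TC71: it was called lower for 39 members, higher for 2 (RFC1 and POLD4) and neither for 11, where 22.4% of all genes were called lower and 25.7% higher. With total counts alone the split was 32 lower and 3 higher. Without the third 48 h library of EW8 the call ended for CDC6, DBF4, POLD1, POLD3 and POLE4. POLD1, POLD3 and POLE4 also lost it without other single libraries. Its median over the members was -0.31, beside 0.04 over all genes. Past a fold of 2 was PCNA, and 0.981% of all genes were called lower and 7.28% higher past that fold. GINS2 lay just inside it at -0.99 and ran from -1.04 to -0.92 over the alternative settings, and POLD4 (0.87) reached 1.05 without the second 0 h library of EW8.

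Called lower in EW8 and higher in TC71 were 15 members (28.8%), a pattern that held for 1.6% of all genes tested: the helicase subunits MCM3, MCM4 and MCM7, the activation factors GINS1, GINS2 and MCM10, ORC3, geminin (GMNN), RPA1, PRIM2, POLE2, PCNA, RFC4, FEN1 and CHAF1B. With total counts alone the 15 became 11, and GINS1, MCM10, ORC3, PRIM2 and CHAF1B lost the EW8 call while RPA3 gained that in TC71. The opposite pattern, higher in EW8 and lower in TC71, held for 0 members and 1.22% of all genes. Called higher in both lines were 20 members (38.5%, against 17.6% of all genes), namely the origin and loading factors ORC1, ORC6, CDC6 and CDT1, MCM8, CDC45, GINS3, TOPBP1, WDHD1, RPA2, POLA1, POLA2, POLD3, POLD4, POLE, RFC1, RFC2, RFC3, RFC5 and CHAF1A. The 20 became 13 with upper-quartile scaling and 14 with each line fitted alone. DBF4 and ORC4 were called lower in both, as were 14.3% of all genes. E2F words were present in the promoters of 9 of the 14 matched members of the first group, 15 of the 18 of the second and 0 of the 2 lower in both.

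**Figure D2:**
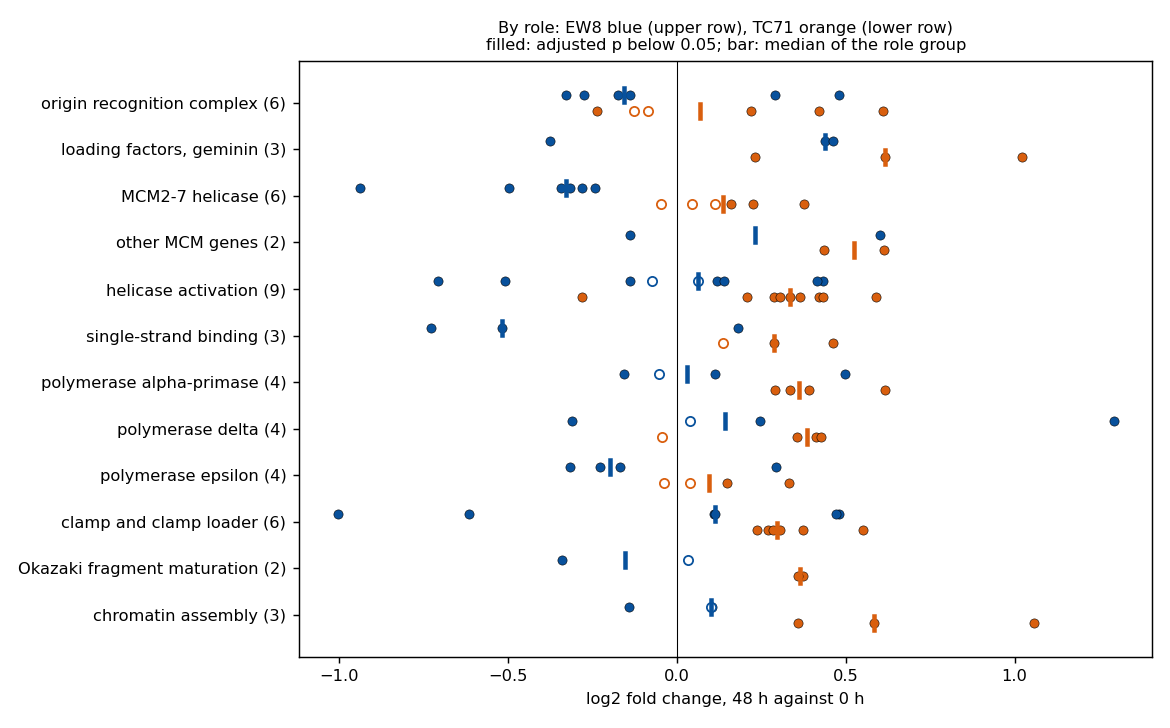
Log2 fold change of 48 h against 0 h by role group, with the number of members in brackets. Blue points are EW8 and orange points TC71, filled where adjusted p was below 0.05, and vertical bars are the medians of the role group. All 6 MCM2-7 subunits lie below 0 in EW8, and all 6 clamp and clamp loader genes lie above 0 in TC71.

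ORC1 to ORC6 encode the complex that marks origins for helicase loading, and they did not move as a unit. In EW8 2 rose (ORC1 and ORC6) and 4 fell, and in TC71 3 rose (ORC1, ORC3 and ORC6), ORC4 fell and 2 were not called. Among all genes tested 37% were called higher and 31.6% lower in EW8, and 22.9% and 19.2% in TC71. The share that rose in EW8 was thus near that of all genes, as was the share that fell in TC71. ORC1 stood at 109, 111 and 113 CPM at 0 h and 135, 140.0 and 132 CPM at 48 h in the EW8 libraries, and at 93.6, 101 and 94.7 and then 141, 145 and 155 CPM in those of TC71. ORC1, an ATPase of the complex whose level is tied to the cell cycle in human cells, rose in both lines without overlap of the libraries: the log2 fold change was 0.29 ± 0.05 (adjusted p = 8.32e-07) in EW8 and 0.61 ± 0.04 (adjusted p = 3.43e-13) in TC71, and the response in TC71 was the larger (difference -0.32 ± 0.06, adjusted p = 7.60e-05). ORC6 stood at 73.4, 67.3 and 73.3 CPM at 0 h and 96.98, 99.6 and 103 CPM at 48 h in the EW8 libraries, and at 61.1, 60.95 and 63.1 and then 81.5, 82.1 and 84.4 CPM in those of TC71. ORC6, the smallest subunit, rose by 0.48 ± 0.05 (adjusted p = 4.63e-11) in EW8 and 0.42 ± 0.05 (adjusted p = 5.98e-09) in TC71 on the log2 scale, and the difference of 0.06 ± 0.07 did not pass the test (adjusted p = 0.479). ORC4 stood at 81.3, 75.6 and 78.7 CPM at 0 h and 64.02, 68.1 and 62.99 CPM at 48 h in the EW8 libraries, and at 62.4, 59.5 and 63.9 and then 50.1, 54.6 and 53.1 CPM in those of TC71. ORC4 fell in both, by 17.3% in EW8 (adjusted p = 1.36e-05) and 15.1% in the other line (adjusted p = 0.000287), and no 48 h library reached the 0 h range of its line. Of the remaining subunits, ORC2 and ORC5 were lower in EW8 (log2 fold change -0.14 and -0.33) and not called in TC71 (-0.08 and -0.13), while ORC3 went from -0.17 in EW8 to 0.22 in TC71. The ORC2 libraries of EW8 overlapped. Its call there was lost in 4 of 20 alternative settings (adjusted p from 0.000380 to 0.840), leaving out the third 0 h library or the first or the third 48 h library of EW8 among them.

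CDC6 and CDT1 bring the helicase to the origin complex and geminin (GMNN) binds and blocks CDT1. CDT1 stood at 65.1, 68.3 and 64.7 CPM at 0 h and 96.6, 86.4 and 89.4 CPM at 48 h in the EW8 libraries, and at 63.1, 68.1 and 56.4 and then 133, 111 and 136 CPM in those of TC71. CDT1 rose in every 48 h library over every 0 h library of its line, and its log2 fold change was 0.46 ± 0.08 (adjusted p = 3.80e-05) in EW8 and 1.02 ± 0.07 (adjusted p = 5.60e-09) in TC71, the second-largest rise of the members in TC71. CDC6 stood at 131, 118 and 134 CPM at 0 h and 175, 173 and 171 CPM at 48 h in the EW8 libraries, and at 87.6, 87.1 and 89.9 and then 134, 137 and 134 CPM in those of TC71. CDC6 also rose in both without overlap, by 0.44 ± 0.04 (adjusted p = 1.10e-10) in EW8 and 0.62 ± 0.05 (adjusted p = 3.20e-13) in TC71 on the log2 scale. The rise was larger in TC71 for both genes, with differences of -0.56 (adjusted p = 0.000295) for CDT1 and -0.18 (adjusted p = 0.0187) for CDC6, and the latter was lost in 2 of 19 alternative settings (adjusted p from 0.000112 to 0.149), leaving out the third 48 h library of EW8 among them. Geminin parted from its target in EW8, where it fell by 22.9% (adjusted p = 7.61e-09), and rose by 17.5% in TC71 (adjusted p = 9.71e-05). The ratio of CDT1 to GMNN CPM went from 0.510, 0.544 and 0.479 to 0.963, 0.836 and 0.930 in EW8, and from 0.690, 0.774 and 0.604 to 1.298, 1.03 and 1.23 in TC71. It was thus higher at 48 h in every library of both lines.

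The MCM2-7 subunits assemble in equal numbers into the ring that unwinds the fork, and all 6 fell in EW8, with log2 fold changes from -0.94 (MCM6) to -0.24 (MCM4) and a median of -0.33. In TC71, MCM3, MCM4 and MCM7 rose, and MCM2, MCM5 and MCM6 were not called (range -0.05 to 0.38, median 0.14). The difference of the responses was called lower in EW8 for all 6, from -0.89 to -0.44. For all genes tested the shares were 31.6% lower in EW8, 22.9% higher in TC71 and 22.4% lower for the difference. In the other fits (other scalings and filters, DESeq2, the block, each line alone and each library left out) the adjusted p of these falls and differences stayed under 0.05, at most 0.0128 for MCM5 in EW8, and the log2 fold change of MCM6 in EW8 ran from -1.003 (without the second 0 h library of EW8) to -0.81. With all libraries and TMM scaling, none of the 6 falls and none of the 6 differences was past a fold of 2.

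MCM6 moved most. MCM6 stood at 464, 434 and 466 CPM at 0 h and 232, 246 and 235 CPM at 48 h in the EW8 libraries, and at 278, 277 and 279 and then 265, 270.0 and 272 CPM in those of TC71. It fell by 47.7% in EW8 (log2 fold change -0.94 ± 0.04, adjusted p = 3.87e-21), and the 48 h libraries lay far below those of 0 h. In TC71 the log2 fold change was -0.05 ± 0.04 (adjusted p = 0.333), the 48 h values lying just under those of 0 h. MCM2 stood at 512, 548 and 517 CPM at 0 h and 386, 364 and 367 CPM at 48 h in the EW8 libraries, and at 373, 397 and 367 and then 401, 372 and 399.6 CPM in those of TC71. The MCM2 libraries separated in EW8 (-0.50 ± 0.04, adjusted p = 4.04e-13) and overlapped in TC71 (0.05 ± 0.04, adjusted p = 0.382). MCM7 stood at 567, 607 and 580.1 CPM at 0 h and 485, 483 and 474 CPM at 48 h in the EW8 libraries, and at 467, 501 and 467 and then 531, 529 and 545 CPM in those of TC71. MCM7 fell by 17.7% in EW8 (adjusted p = 2.91e-08) and rose by 11.8% in TC71 (adjusted p = 0.000549), with no overlap in either line. MCM3, MCM4 and MCM5 fell by 19.6%, 15.5% and 21.1% in EW8.

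The spread between the subunits was wider at 48 h in both lines. Per kilobase of the canonical transcript, the mean MCM levels in EW8 at 0 h ran from 119 CPM per kb (MCM5) to 237 (MCM7), a ratio of 1.997. At 48 h they ran from 63.4 (MCM6) to 195 (MCM7), a ratio of 3.08. In TC71 the lowest was MCM5 at 0 h (72.8 CPM per kb) and MCM6 at 48 h (71.7), and the highest was MCM7 at both times (194 and 217), which gave ratios of 2.66 and 3.02. MCM5 and MCM6 nearly tied at 0 h, where MCM6 stood at 121 CPM per kb in EW8 and 74.05 in TC71. All these values are levels of mRNA and say nothing of the protein ring.

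**Figure D3:**
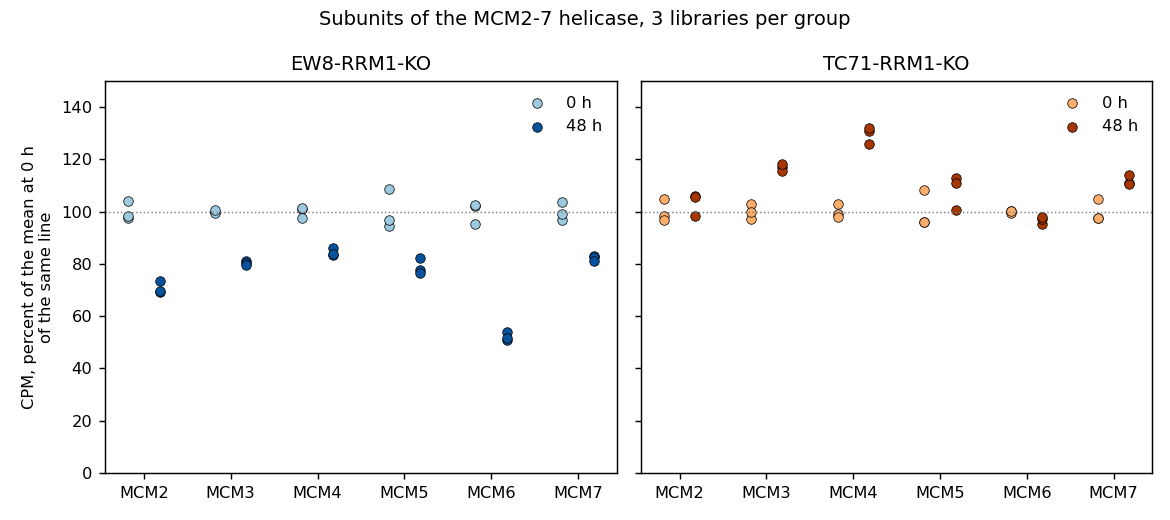
CPM of the MCM2-7 subunits in each library as a percentage of the mean at 0 h of the same line, in EW8 (left) and TC71 (right), 3 libraries per time. In EW8 all dark points (48 h) lie below the pale points (0 h), lowest for MCM6, and in TC71 the dark points of MCM3, MCM4 and MCM7 lie above.

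MCM8 shares the helicase fold and works with MCM9 in homologous recombination, and MCM10 helps to activate the loaded ring. MCM8 stood at 152, 146 and 157 CPM at 0 h and 222, 246 and 225 CPM at 48 h in the EW8 libraries, and at 96.5, 93.2 and 100.2 and then 143, 157 and 143 CPM in those of TC71. MCM8 rose in both lines, by 0.60 ± 0.05 (adjusted p = 1.34e-13) and 0.61 ± 0.05 (adjusted p = 1.46e-12) on the log2 scale, and the difference of -0.01 (adjusted p = 0.910) had a 95% interval from -0.15 to 0.12. Its 48 h libraries lay above all 0 h libraries of the same line. In the GENCODE annotation, exons of MCM8 share 2564 bases with those of another gene on the same strand, and how shared reads were counted is not given in the sources used here. MCM10 had a log2 fold change of -0.14 in EW8 (adjusted p = 0.00933), against 0.43 in TC71 (adjusted p = 9.37e-10), and the EW8 call was lost in 1 of 20 alternative settings (adjusted p from 0.000549 to 0.813).

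Of the 9 genes that turn the loaded ring into a moving helicase, 8 rose in TC71 and DBF4 fell. In that line 22.9% of all genes were called higher and 19.2% lower. In EW8 4 rose, 3 fell and 2 were not called, close to the 37% higher and 31.6% lower of all genes there. GINS2 stood at 48.7, 48.2 and 49.96 CPM at 0 h and 31.7, 28.7 and 29.7 CPM at 48 h in the EW8 libraries, and at 52.4, 51.2 and 49.3 and then 61.4, 62.3 and 63.2 CPM in those of TC71. GINS2, a subunit of the GINS complex, fell by 38.7% in EW8 (log2 fold change -0.71 ± 0.06, adjusted p = 1.70e-13) and rose in TC71 (0.29 ± 0.05, adjusted p = 1.47e-05), without overlap in either line. The other GINS genes had log2 fold changes of -0.14 (GINS1), 0.14 (GINS3) and 0.06 (GINS4, not called) in EW8, against 0.33, 0.42 and 0.37 in TC71, so that the 4 subunits of the complex were closer together in TC71. The GINS3 libraries of EW8 overlapped. Its call there was lost in 8 of 20 alternative settings (adjusted p from 0.000160 to 0.411), leaving out the first or the second 0 h library or the first or the second 48 h library of EW8 among them. CDC45 stood at 124, 129 and 123 CPM at 0 h and 135, 141 and 132 CPM at 48 h in the EW8 libraries, and at 87.8, 87.8 and 86.2 and then 129, 128 and 136 CPM in those of TC71. CDC45, which joins GINS on the ring, rose by 0.59 ± 0.04 (adjusted p = 3.89e-13) in TC71. Its rise in EW8 was small (0.12 ± 0.04, adjusted p = 0.0138), with the libraries just separated, and did not pass the test in 5 of 20 alternative settings (adjusted p from 5.19e-06 to 0.195), leaving out the first or the third 0 h library or the second 48 h library of EW8 among them.

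DBF4 stood at 75.1, 68.2 and 76.95 CPM at 0 h and 50.99, 56.2 and 48.2 CPM at 48 h in the EW8 libraries, and at 58.9, 57.8 and 58.5 and then 46.5, 49.01 and 48.8 CPM in those of TC71. DBF4, the activating subunit of the CDC7 kinase, fell in both lines, by 29.7% in EW8 (adjusted p = 6.51e-10) and, in the other line, by 17.6% (adjusted p = 9.74e-05), the largest fall of any member in TC71. CDC7 stood at 73.8, 67.02 and 73.1 CPM at 0 h and 67.6, 70.4 and 65.97 CPM at 48 h in the EW8 libraries, and at 79.2, 80.3 and 82.7 and then 89.05, 96.2 and 94.6 CPM in those of TC71. The CDC7 libraries overlapped in EW8 (-0.07 ± 0.05, adjusted p = 0.203) and were higher at 48 h in TC71 (0.21 ± 0.05, adjusted p = 0.000571), so the kinase subunit and its activator moved apart in TC71. TOPBP1 stood at 233, 216 and 236 CPM at 0 h and 294, 314 and 315 CPM at 48 h in the EW8 libraries, and at 130.5, 121 and 126 and then 147, 159 and 160.4 CPM in those of TC71. TOPBP1, a scaffold of origin firing that also activates the checkpoint kinase ATR, rose by 0.43 ± 0.04 (adjusted p = 1.23e-10) in EW8 and 0.31 ± 0.05 (adjusted p = 1.39e-06) in TC71 with no overlap. WDHD1, which links polymerase alpha to the helicase, rose by 0.41 and 0.43.

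RPA1, RPA2 and RPA3 make the RPA heterotrimer that coats single-stranded DNA, and in EW8 its largest subunit and its smallest fell while RPA2 rose. RPA1 stood at 139, 142 and 145 CPM at 0 h and 97.7, 101 and 98.9 CPM at 48 h in the EW8 libraries, and at 124, 126 and 129 and then 151, 154 and 158 CPM in those of TC71. In EW8 RPA1 fell by 30.2% (log2 fold change -0.52 ± 0.04, adjusted p = 4.55e-13), and the gene rose in TC71 (0.29 ± 0.04, adjusted p = 6.10e-07), with separate libraries in both. RPA3 stood at 28.9, 29.04 and 30.7 CPM at 0 h and 17.8, 18.6 and 17.3 CPM at 48 h in the EW8 libraries, and at 29.7, 26.4 and 26.9 and then 28.02, 32.04 and 31.3 CPM in those of TC71. RPA3 fell by 39.6% in EW8 (-0.73 ± 0.07, adjusted p = 3.70e-11), while the TC71 libraries overlapped (0.14 ± 0.06, adjusted p = 0.0826). RPA2 stood at 131, 133 and 136 CPM at 0 h and 145, 158 and 150.4 CPM at 48 h in the EW8 libraries, and at 193, 199 and 193 and then 265, 269 and 272 CPM in those of TC71. RPA2 rose in both, by 0.18 ± 0.04 (adjusted p = 0.000208) in EW8 and 0.46 ± 0.04 (adjusted p = 1.26e-11) in TC71, and it was the one RPA gene lower in EW8 than in TC71 at 0 h. The ratio of RPA2 to RPA1 CPM went from 0.943, 0.941 and 0.936 to 1.48, 1.57 and 1.52 in EW8 and from 1.56, 1.57 and 1.49 to 1.76, 1.74 and 1.72 in TC71. All 3 genes had a lower response in EW8, by -0.80 (RPA1), -0.86 (RPA3) and -0.28 (RPA2). That difference was called lower for 22.4% of all genes tested.

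**Figure D4:**
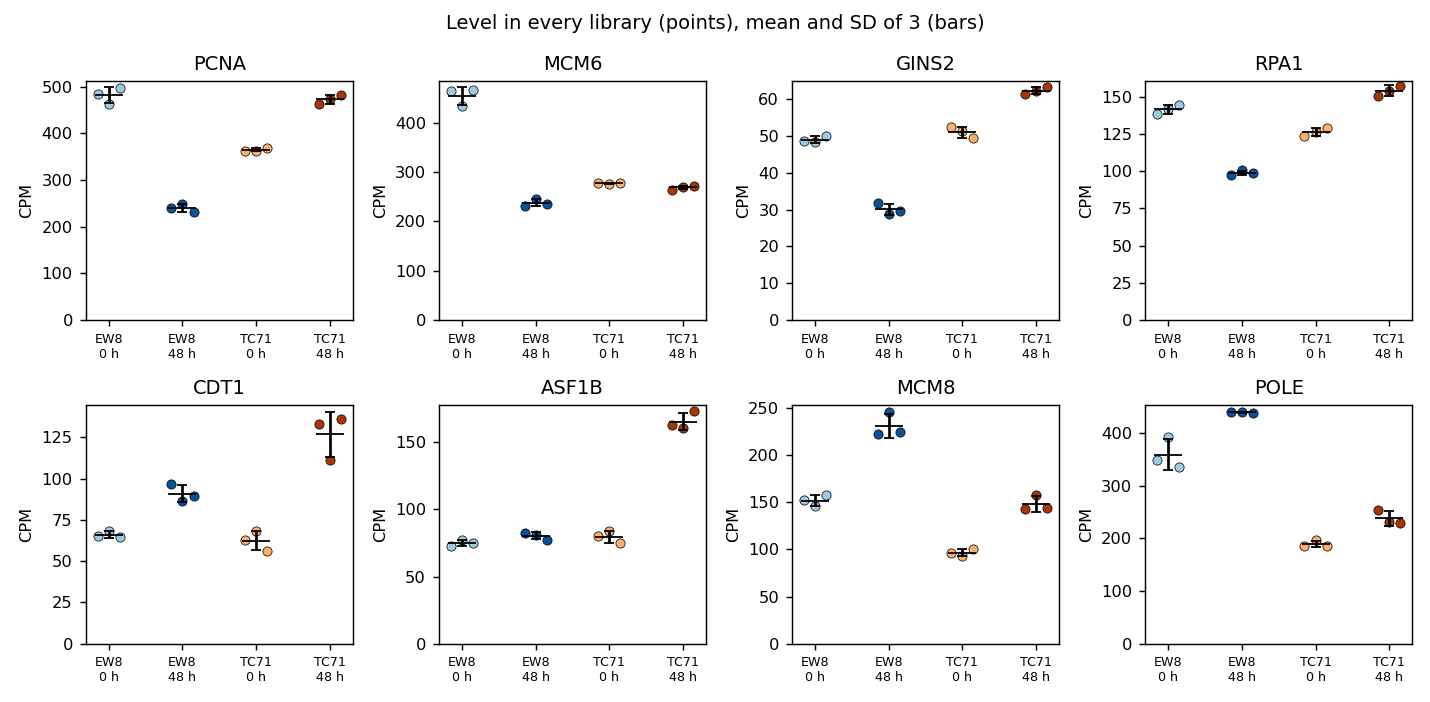
CPM in each library for 8 members, with the mean and SD of the 3 libraries, on axes that start at 0. PCNA, MCM6, GINS2 and RPA1 drop from 0 h to 48 h in EW8, while ASF1B rises in TC71 with EW8 between 72.9 and 82.4 CPM, and CDT1, MCM8 and POLE rise in both lines.

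All 4 genes of polymerase alpha-primase, the enzyme that makes primers, rose in TC71. In EW8 2 rose (POLA1 and POLA2), PRIM2 fell and PRIM1 was not called. Over all genes tested, 22.9% were called higher in TC71, and 37% higher and 31.6% lower in EW8. The EW8 split of these 4 genes was thus not far from that of all genes. POLA2 stood at 111, 109 and 118 CPM at 0 h and 156, 159.6 and 162 CPM at 48 h in the EW8 libraries, and at 94.5, 104 and 94.5 and then 147, 148 and 153 CPM in those of TC71. POLA2, the accessory B subunit, rose by 0.50 ± 0.04 (adjusted p = 7.08e-12) in EW8 and 0.62 ± 0.04 (adjusted p = 2.80e-13) in TC71 without overlap, and the difference was not called (-0.12 ± 0.06, adjusted p = 0.119). Exons of POLA2 share 2012 bases with another annotated gene on the same strand. POLA1 stood at 153, 148 and 152 CPM at 0 h and 164, 164 and 161 CPM at 48 h in the EW8 libraries, and at 117, 112 and 120.1 and then 141, 144 and 144 CPM in those of TC71. POLA1, the catalytic subunit, had separate libraries with smaller changes, 0.11 ± 0.04 (adjusted p = 0.0140) in EW8 and 0.29 ± 0.04 (adjusted p = 4.66e-07) in TC71, and the EW8 call was lost in 5 of 20 alternative settings (adjusted p from 2.03e-06 to 0.168), leaving out any of the 3 EW8 libraries of 0 h among them. PRIM2 stood at 49.1, 45.5 and 51.9 CPM at 0 h and 43.4, 45.3 and 43.5 CPM at 48 h in the EW8 libraries, and at 28.3, 26.1 and 29.4 and then 34.1, 36.4 and 35.3 CPM in those of TC71. PRIM2, the large primase subunit, fell by 10.2% in EW8 (adjusted p = 0.0173, and from 0.000701 to 0.644 over the alternative settings, with the call lost without the third library of 0 h, the first of 48 h or the third of 48 h) and rose by 26.03% in TC71 (adjusted p = 2.90e-05). PRIM1, the catalytic primase subunit, had log2 fold changes of -0.05 in EW8 and 0.39 in TC71. Exons of PRIM1 share 501 bases with other annotated genes on the same strand, NACA among them.

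Polymerase delta copies the lagging strand and polymerase epsilon most of the leading strand. POLE stood at 349, 392 and 336 CPM at 0 h and 441, 439 and 437 CPM at 48 h in the EW8 libraries, and at 185, 196 and 186 and then 254, 230.2 and 229.6 CPM in those of TC71. POLE, the catalytic subunit of epsilon, rose in both lines, by 0.29 ± 0.05 (adjusted p = 1.83e-06) and 0.33 ± 0.05 (adjusted p = 1.30e-06), with the second 0 h library of EW8 the nearest to the 48 h values and no overlap. The difference was not called (-0.04 ± 0.07, adjusted p = 0.654). The accessory subunits of epsilon did not follow: POLE2, POLE3 and POLE4 fell in EW8 (-0.31, -0.17 and -0.23, the latter pair not called with total counts alone), and in TC71 POLE2 rose (0.15) and the other two were not called (0.04 and -0.04). The call of POLE2 in TC71 was lost in 9 of 20 alternative settings (adjusted p from 0.00409 to 0.161), leaving out the first or the third 0 h library of either line or any 48 h library of TC71 among them. POLD1 stood at 102, 112 and 103 CPM at 0 h and 118, 103 and 106 CPM at 48 h in the EW8 libraries, and at 103, 116 and 102 and then 147, 119 and 143 CPM in those of TC71. POLD1, the catalytic subunit of delta, had overlapping libraries in EW8 (0.04 ± 0.08, adjusted p = 0.681) and rose in TC71 (0.36 ± 0.08, adjusted p = 0.00198), where the libraries just separated. Its exons share 426 bases with another annotated gene on the same strand. Such overlaps were 29 to 123 bases for MCM7, FEN1, CHAF1B and POLD3. Exons also overlapped genes on the opposite strand, by 1276 bases for GINS4, 1113 for MCM2 and 588 for ORC4. For GINS3, POLA2 and LIG1 this overlap was 558, 543 and 425 bases. Whether reads were counted by strand is not given in the sources used here. POLD2 fell in EW8 (-0.31) and was not called in TC71 (-0.04), and POLD3 rose in both (0.25 and 0.41).

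POLD4, the smallest subunit of delta, was the member with the lowest level. POLD4 stood at 0.876, 1.43 and 0.854 CPM at 0 h and 2.98, 2.01 and 2.45 CPM at 48 h in the EW8 libraries, and at 2.72, 2.795 and 2.400 and then 3.82, 3.92 and 2.97 CPM in those of TC71. The raw counts behind these values were 20, 25 and 28 in EW8 at 0 h, 56, 40 and 50 at 48 h, and 57 to 105 in TC71. POLD4 was higher at 48 h in every library, with a log2 fold change of 1.29 ± 0.22 (adjusted p = 4.90e-06) in EW8 and 0.43 ± 0.16 (adjusted p = 0.0329) in TC71. The TC71 call was lost in 6 of 20 alternative settings (adjusted p from 0.00966 to 0.120), leaving out the first or the third 0 h library or the first or the second 48 h library among them. The difference between the lines (0.87 ± 0.28, adjusted p = 0.0102) was lost in 1 of 19 (adjusted p from 0.00426 to 0.0742), where the third 0 h library of EW8 was left out. Its exons share 650 bases with another annotated gene on the same strand.

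PCNA is the ring that holds polymerases on DNA, and RFC1 to RFC5 open and close it. PCNA stood at 485, 464 and 497 CPM at 0 h and 241, 249 and 232 CPM at 48 h in the EW8 libraries, and at 363, 363 and 369 and then 463, 473 and 481 CPM in those of TC71. In EW8 the level fell by 50.1% (log2 fold change -1.003 ± 0.04, adjusted p = 4.51e-22), the largest fall of any member, and in TC71 it rose by 29.5% (0.37 ± 0.04, adjusted p = 4.66e-10). EW8 was above TC71 at 0 h and below it at 48 h, without overlap at either time. The difference of the responses was -1.38 ± 0.05 (adjusted p = 1.04e-19), the largest of the 52. The PCNA promoter stretch printed above holds CCAAT on both strands and no E2F word.

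Among the loader genes, RFC4 went with PCNA and the others rose. RFC4 stood at 115, 106 and 111 CPM at 0 h and 72.1, 75.7 and 69.4 CPM at 48 h in the EW8 libraries, and at 86.97, 82.3 and 88.7 and then 101, 109 and 105 CPM in those of TC71. RFC4, a small subunit, fell by 34.7% in EW8 (-0.61 ± 0.05, adjusted p = 2.91e-13) and rose in TC71 (0.29 ± 0.05, adjusted p = 8.41e-06), without overlap in either line. RFC1 stood at 115, 110.4 and 112 CPM at 0 h and 150.1, 163 and 159 CPM at 48 h in the EW8 libraries, and at 116, 109 and 117 and then 136, 139 and 138 CPM in those of TC71. RFC1, the large subunit found only in the canonical loader, rose in both, by 0.48 ± 0.04 (adjusted p = 5.99e-12) and 0.27 ± 0.04 (adjusted p = 4.27e-06), and it was 1 of 2 members with a higher response in EW8 (0.21 ± 0.06, adjusted p = 0.00415). RFC5 stood at 139, 134 and 138 CPM at 0 h and 145, 149 and 151 CPM at 48 h in the EW8 libraries, and at 64.3, 64.9 and 67.3 and then 76.7, 79.3 and 75.6 CPM in those of TC71. RFC5 rose slightly, by 0.11 ± 0.04 (adjusted p = 0.0169) in EW8 and 0.24 ± 0.04 (adjusted p = 4.94e-05) in TC71, and the EW8 call was lost in 6 of 20 alternative settings (adjusted p from 3.63e-06 to 0.179), leaving out any 0 h library or the third 48 h library among them. RFC2 rose by 0.47 and 0.55 and RFC3 by 0.11 and 0.31. The RFC3 call in EW8 was lost in 6 of 20 alternative settings (adjusted p from 9.89e-06 to 0.255), leaving out any 0 h library or the second 48 h library of EW8 among them. PCNA to RFC2 ratios of CPM went from 5.19, 4.94 and 5.22 to 1.83, 1.90 and 1.80 in EW8, and from 4.16, 3.94 and 4.34 to 3.71, 3.77 and 3.51 in TC71.

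FEN1 trims the flaps of Okazaki fragments and LIG1 seals them. FEN1 fell by 20.9% in EW8 (adjusted p = 1.20e-09) and rose by 29.5% in TC71 (adjusted p = 7.80e-10). LIG1 stood at 65.8, 76.9 and 66.6 CPM at 0 h and 72.04, 71.6 and 69.5 CPM at 48 h in the EW8 libraries, and at 30.9, 32.9 and 30.5 and then 41.7, 39.4 and 39.7 CPM in those of TC71. The LIG1 libraries overlapped in EW8 (0.03 ± 0.05, adjusted p = 0.615) and separated in TC71 (0.36 ± 0.06, adjusted p = 7.98e-06). ASF1B stood at 72.9, 77.1 and 74.8 CPM at 0 h and 82.4, 81.3 and 77.6 CPM at 48 h in the EW8 libraries, and at 80.04, 83.8 and 74.9 and then 163, 160.4 and 173 CPM in those of TC71. ASF1B, a chaperone that hands histones H3 and H4 to the fork, rose 2.08-fold in TC71 (1.06 ± 0.05, adjusted p = 5.34e-19), the largest change of any member there. In EW8 its log2 fold change was 0.10 ± 0.05 (adjusted p = 0.0644), with the libraries barely apart, and over the alternative settings adjusted p ran from 0.000132 to 0.464. CHAF1A stood at 145, 150.4 and 149.6 CPM at 0 h and 161, 158 and 159 CPM at 48 h in the EW8 libraries, and at 115, 123 and 112 and then 155, 140.4 and 152 CPM in those of TC71. CHAF1A, the large subunit of the CAF-1 chaperone, rose by 0.36 ± 0.04 (adjusted p = 5.70e-08) in TC71. In EW8 its change was 0.10 ± 0.04 (adjusted p = 0.0395), a call lost in 15 of 20 alternative settings (adjusted p from 3.59e-05 to 0.390), leaving out any 1 of the 6 EW8 libraries among them. CHAF1B, its partner, was lower in EW8 (-0.14, adjusted p from 0.00300 to 0.804 over the alternative settings, lost without the third 48 h library) and higher in TC71 (0.59).

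The lines differed before doxycycline was removed: at 0 h, 38 members (73.1%) were called higher in EW8 than in TC71 and 3 (5.77%) lower, where 32.8% of all genes were called higher and 32.9% lower. The median difference was 0.24 on the log2 scale, beside -0.01 over all genes. With total counts alone it became 0.11, while the median of all genes moved to -0.14. The libraries of the lines did not overlap for 43 members (82.7%, against 68.3% of all genes). The split was 27 to 8 with total counts alone and 35 to 8 with upper-quartile scaling. Past a fold of 2 were LIG1 and RFC5, higher in EW8, and POLD4, lower (background 4.77% higher and 11.9% lower). LIG1 held 65.8 to 76.9 CPM in EW8 against 30.5 to 32.9 in TC71, a difference of 1.15 ± 0.06 (adjusted p = 1.75e-18), and RFC5 134 to 139 CPM against 64.3 to 67.3, a difference of 1.07 ± 0.04 (adjusted p = 5.19e-21). Over the alternative settings RFC5 ran from 0.93 to 1.09 and was not past a fold of 2 with total counts alone or upper-quartile scaling. POLE, TOPBP1 and PRIM2 followed with 0.92, 0.86 and 0.81. The 3 lower members were POLD4 (-1.39 ± 0.21, adjusted p = 7.65e-07), RPA2 (-0.55 ± 0.04, adjusted p = 4.91e-14) and CDC7 (-0.18 ± 0.05, adjusted p = 0.00206).

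All 6 MCM2-7 genes were higher in EW8 at 0 h, from 0.11 (MCM4) to 0.71 (MCM6), although with total counts alone MCM4 turned to -0.022 and was no longer called (adjusted p from 0.000509 to 0.545 over the alternative settings), and with upper-quartile scaling it lost the call too. All 4 polymerase alpha-primase genes were higher too (0.21 to 0.81), POLA2 not with total counts alone. Beside these role groups, 32.8% of all genes tested were called higher in EW8 at 0 h. The group means of CPM were higher in EW8 for 43 of the 52 members at 0 h and for 24 of 52 at 48 h, and the median log2 ratio of EW8 to TC71 went from 0.24 to -0.05. These levels share the libraries of the tests above and add no independent comparison.

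**Figure D5:**
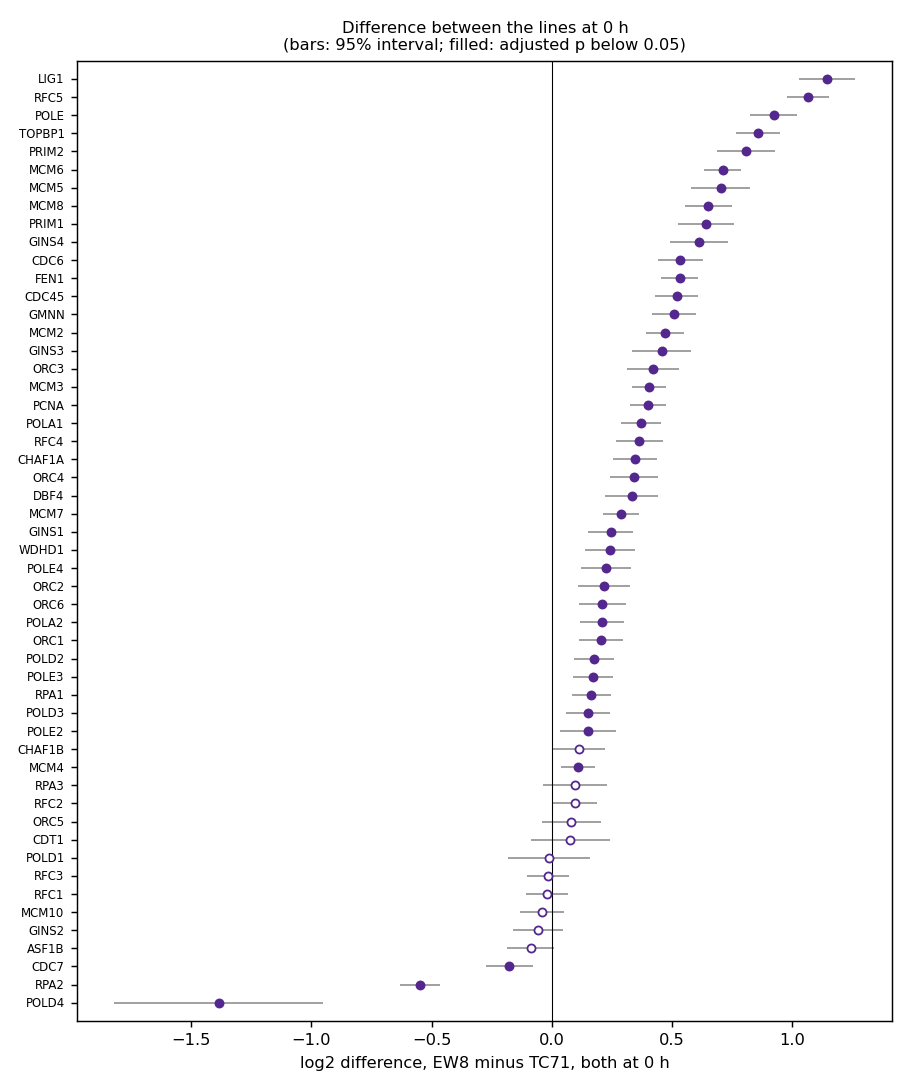
Log2 difference of EW8 minus TC71 at 0 h for the 52 members in order of size, with 95% intervals and filled points where adjusted p was below 0.05. LIG1 and RFC5 lead at 1.15 and 1.07, and RPA2 and POLD4 close the list at -0.55 and -1.39.

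The 15 members that also belong to the S phase list of the Seurat package, among them PCNA, MCM4, MCM5, MCM6, MCM7, GINS2 and FEN1, had a median log2 fold change of -0.24 in EW8 (5 higher, 9 lower) and 0.37 in TC71 (13 higher, 0 lower). The 5 higher in EW8 were CDC45, CDC6, POLA1, POLD3 and RFC2. Of all genes tested, 37% and 31.6% were called higher and lower in EW8 and 22.9% and 19.2% in TC71. For the other 37 members the medians were 0.03 (15 higher, 17 lower) and 0.31 (28 higher, 2 lower). The difference of the responses was called lower for 14 of the 15 (median -0.47) and for 25 of the 37 (median -0.28). A further 36 genes of replication and fork protection outside the list, all of which were tested, gave 16 higher and 13 lower in EW8 (median -0.03) and 23 higher and 3 lower in TC71 (median 0.33). In EW8 that was 44.4% higher and 36.1% lower, not far from the shares of all genes, and in TC71 63.9% and 8.33%. Their difference of responses was called lower for 21 and higher for 4 (58.3% and 11.1%, against 22.4% and 25.7% of all genes), with a median of -0.34. At the extremes of that list were MCMBP, which binds MCM proteins, at -0.71 in EW8, the CDC7 activator DBF4B at 1.06 in EW8, DONSON, a fork factor, at 0.72 in TC71, and TIPIN, a fork protection factor, with a difference of -0.80.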

How the data were processed

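RNA-seq libraries of 12 samples were analysed, 3 for each of 2 lines and 2 times. The authors extracted polyadenylated RNA, made stranded libraries, used FastQC for read quality and STAR for mapping to hg38, and deposited raw counts per gene with no normalization. The counting tool, annotation and strand setting are not given in the sources used here. Testing of the deposited counts used edgeR 4.0.16 (R 4.3.3). Its filterByExpr, given the 4 groups, a minimum count of 10 and a minimum total of 15, passed 16515 of 20771 genes. Libraries were scaled by TMM and 1 robust quasi-likelihood model was fitted to the 4 groups, without a replicate block, and Benjamini-Hochberg adjustment over all genes tested. The common biological coefficient of variation was 4.17%. The study names DESeq2 with a fold above 2, and both were run as alternatives (DESeq2 1.42.0), with other scalings, filters and thresholds, each line alone, and each library left out. The procedure was also run on simulated counts with 200 genes changed in EW8 at 48 h. That setting is milder than these data, where 68.6% of genes tested were called in EW8, so no conclusion is drawn from it. Depth was 18468485 to 35698991 counts per library.

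The members, roles and lists were chosen with earlier results of these data known, so lists are described by counts and medians only. Values in every library are given for members past a fold of 2, for the 5 largest called changes in each direction and line, for the 5 smallest adjusted p in each direction of the difference, for the 5 largest called differences at 0 h, and for 12 fixed genes of the main complexes. Same-numbered libraries of the 2 times did not deviate together (correlations -0.14 to -0.01). Gene models came from GENCODE release 44, promoters from RefSeq (46 of 52 members matched), the S phase list from Seurat 5.3.0, and figures from matplotlib 3.10.9 in Python 3.11.15.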

Additional observations from a re-analysis of the deposited data

Results flagged for a closer look

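The response of PCNA differed between the lines by -1.38 on the log2 scale (EW8 minus TC71), by the test of the difference itself. By the same test, 39 members had a lower response in EW8 than in TC71 and 2, RFC1 and POLD4, a higher one, where 22.4% and 25.7% of all genes had a lower and a higher one. In all, 15 members were called lower in EW8 and higher in TC71, as were 1.6% of all genes. Each of these values rests on 3 libraries per group and on 1 clone per line.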

How the results depend on the processing

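Of 4056 values of a member in a comparison under an alternative, 3894 kept their side of the threshold, 116 lost the call, 45 gained it and 1 called value reversed: MCM4 between the lines at 0 h, at -0.022 with total counts alone. Of the 3894, 36 changed sign, in 21 member comparisons called neither before nor after, 15 of them with total counts alone. That scaling moved the median of all genes in EW8 from 0.03 to 0.16, and the members' medians to 0.020 in EW8 (reversed), 0.38 in TC71, -0.24 for the difference of the responses and 0.11 at 0 h. Relative to all genes the members stood at -0.14 in EW8 with either scaling, but scaling shifts all genes alike and could hardly move this value. It was -0.094 with at least 10 counts in every library. Without the third 48 h library of EW8 it was -0.102, and without the second 0 h library -0.172. With upper-quartile scaling the median at 0 h was 0.17, the members lower in EW8 at 0 h were 8 (8 with total counts alone), and those higher in both lines 13. With a fold above 2 also required, members higher and lower were 1 and 1 in EW8, 2 and 0 in TC71, 0 and 1 for the difference and 2 and 1 at 0 h. At an adjusted p below 0.01, 1 member had a higher response in EW8. Leaving out each library in turn gave medians of -0.17 to -0.070 in EW8, 0.30 to 0.34 in TC71, -0.35 to -0.28 for the difference and 0.23 to 0.28 at 0 h. It gave 14 to 20 higher and 23 to 27 lower members in EW8, 39 to 42 higher and 2 lower in TC71, 34 to 41 lower and 1 to 3 higher for the difference, 37 to 40 higher and 3 to 4 lower at 0 h, 14 to 20 higher in both lines and 13 to 16 lower in EW8 and higher in TC71. The count of 1 came without the third 0 h library of EW8 (POLD4 lost) and that of 3 without its first 48 h library (TOPBP1 gained). With the replicate number as a block, 15 members were lower in EW8 and higher in TC71 and 19 higher in both, with 1 call lost, CHAF1A in EW8 (adjusted p = 0.0605). The labels do not say whether libraries with the same replicate number were paired. Other causes of these shifts were not tested. Depth limits POLD4, with 20 to 105 counts per library.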
